A study of Mus musculus with 4 samples.

Results

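A set of 8 scavenger and endocytic genes of tissue-resident macrophages, Mrc1, Cd163, Lyve1, Retnla, Folr2, Dab2, Pf4 and Fcrls, was followed in monocytes and macrophages of the mouse colon. The genes were taken as the matrix rows of these symbols, and 7 of the 8, out of 11820 genes in all, had a row. Folr2 was not analysed here. The list was chosen by measured values of these same cells, namely detection together in C1q-high cells and the level by stage and by diet, so such values are given below as descriptions. Where a fit over all genes also called members, the calls are printed beside the share of all genes called, and nothing is read from them. The cells were sorted from the colonic lamina propria of male C57/Bl6N mice aged 6 to 7 weeks as live CD45+Lin-CD11b+CD24- cells with Ly6C or CD64. Chow replicates 9 and 11 received chow and HFD replicates 1 and 3 the coconut-based high-fat diet (HFD, given as 60%) for 1 week, each mouse was 1 library, and the question of the study was what the diet changes in colonic macrophages. Chow differs from the high-fat diet in more than its fat content, and the comparison does not part these differences.

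Resident macrophages of the gut wall are replenished by blood monocytes, which enter the lamina propria with Ly6C on their surface, gain MHC class II and then mature into cells rich in the complement subunits C1qa, C1qb and C1qc. Mature tissue macrophages in many organs carry endocytic receptors and secreted factors that take up glycoproteins, haemoglobin, hyaluronan and folate and that signal to neighbouring cells, and these genes are commonly used to mark long-lived resident cells. Mrc1 encodes the mannose receptor CD206, Cd163 the receptor for haptoglobin-haemoglobin complexes, Lyve1 a hyaluronan receptor shared with lymphatic endothelium and Folr2 the folate receptor beta. Dab2 is a clathrin adaptor for receptors of the LDL receptor family, Fcrls is an Fc receptor-like protein with a scavenger receptor domain, Pf4 is the chemokine CXCL4, also known from platelet granules, and Retnla is the secreted protein RELM alpha, a classical target of IL-4 and STAT6.

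The 4 libraries held 904 and 2002 cells on chow and 966 and 1548 cells on HFD, with between 3824228 and 7947893 UMIs (unique molecular identifiers, each standing for 1 captured RNA molecule). Cells were divided by genes outside the list. C1q-high cells had at least 0.5% of their UMIs in C1qa, C1qb and C1qc. The other cells were Ly6c2-negative C1q-low where they held 0 UMIs of Ly6c2, and otherwise Ly6c2-positive, with MHC II genes (H2-Aa, H2-Ab1 and H2-Eb1) under 1% of UMIs in MHC II-low and at or above it in MHC II-high cells. On chow 86.5% ± 5.73 (SD, n = 2) of the cells were C1q-high and on HFD 38.6% ± 3.76 (SD, n = 2), 3513 cells in all. Of all cells, 12.1% lay near the C1q limit, between 0.25% and 1%, and such cells made up 7.11% and 5.41% of the C1q-high cells on chow but 29.3% and 32.9% on HFD. The C1q-high cells held the macrophage markers Csf1r (613 to 903 CPM, UMIs of the gene per 1000000 UMIs) and Fcgr1 (139 to 220.1 CPM) in all 4 mice. Fcgr1 did not set them apart, since Ly6c2-positive MHC II-low cells held it at 182 to 295 CPM. The macrophage marker Adgre1 was at 697 and 695 CPM in C1q-high cells on chow but at 307 and 233.5 CPM on HFD. Flt3, a dendritic cell gene, stood at 0.812 to 2.67 CPM in them. The list of 6 dendritic cell genes to which it belongs was higher on HFD, at a summed 144 and 147 CPM against 32.3 and 32.9 CPM on chow. Ly6c2-negative C1q-low cells, 630 in all, also held Csf1r (426 to 669 CPM) and had monocyte markers at 6164 to 9568 CPM, with Ccr2 at 616 to 950 CPM. In 23 cases libraries shared a cell barcode, which concerned 46 cells, and without them the tests named below called the same members in every stage.

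Over all cells of a mouse, each of the 7 genes was lower on HFD, and for Retnla the mice overlapped in C1q-high cells. Of the 4955 genes tested over all cells, 2545 had a fitted difference below 0 and 2410 above 0. The diet difference helped choose the members, so nothing is read from their common direction. Over all cells the mean on chow was 6.70 times that on HFD for Mrc1, 6.25 times for Dab2, 10.2 times for Pf4, 12.7 times for Fcrls, 11.03 times for Lyve1, 7.06 times for Cd163 and 3.17 times for Retnla. In these sums fewer cells of a stage and less RNA per cell cannot be told apart, and the stages are therefore given one by one below. Of the 5 members with a UMI in at least 5% of cells, 4 (Dab2, Fcrls, Mrc1 and Pf4) were called with a lower level on HFD (FDR 1%, quasi-likelihood test of edgeR), where 8.58% of the 4955 genes tested were called lower and 7.67% higher. Within C1q-high cells the same 4 of 5 passed, and 4.67% of 5095 genes were called lower and 4.99% higher. Since the diet difference was among the values that chose these genes, nothing is read from these counts of calls.

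**Figure D1:**
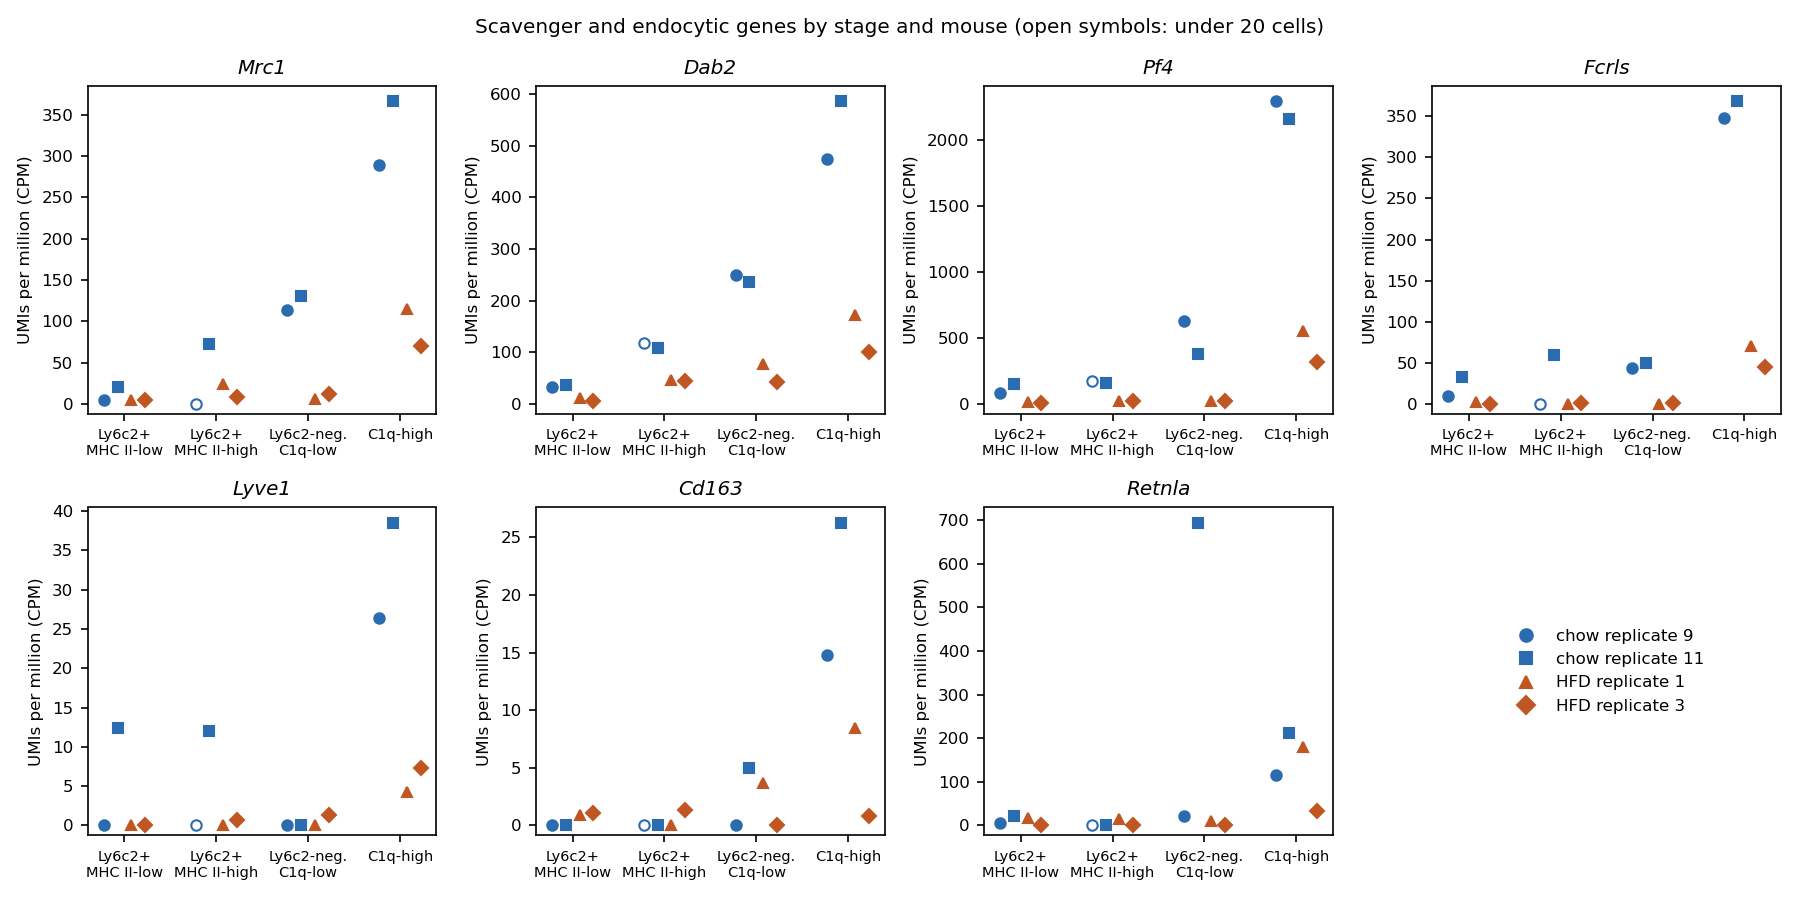
Level of each member in CPM (linear axis) in the 4 stages, 1 symbol per mouse (blue, chow; orange, HFD); open symbols mark the 4 Ly6c2-positive MHC II-high cells of chow replicate 9. In C1q-high cells Pf4 is at 2296 and 2159 CPM in the chow mice against 550 and 317 CPM in the HFD mice, and the mice overlap for Retnla.

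Among the receptors, Mrc1 (chromosome 2, 14229392 to 14332057, GRCm38) was measured in C1q-high cells at 289 and 366 CPM in the chow mice and at 115 and 70.7 CPM in the HFD mice. The groups did not overlap, and the difference was -1.97 on the log2 scale (standard error 0.24, n = 2 mice per diet). A UMI of Mrc1 was found in 50.5% and 59.3% of the C1q-high cells on chow and in 24.6% and 17.8% on HFD. Median depth was similar, between 3817 and 4319 UMIs per cell. With every cell reduced to 1500 UMIs the shares were 26.6%, 37.5%, 14.6% and 9.20%, with 35 to 158 shallower cells per mouse left out.

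Lyve1 (chromosome 7, 110850607 to 110863239) and Cd163 (chromosome 6, 124304656 to 124330527) were seen in few cells and did not enter the fit of the whole stage. Lyve1 stood at 26.4 and 38.5 CPM on chow and at 4.25 and 7.31 CPM on HFD in C1q-high cells. Its UMIs came from 20 of 745 and 100 of 1812 cells on chow, and from 3 of 399 and 4 of 557 cells on HFD. Cd163 was at 14.8 and 26.3 CPM on chow and at 8.49 and 0.812 CPM on HFD. In HFD replicate 1 a single cell held 8 of its 14 UMIs, and in HFD replicate 3 a single cell held both of its 2 UMIs. At this depth few C1q-high cells held a UMI of either receptor even on chow, and a cell without a UMI may still express it. On chow a UMI of Lyve1 was found in 2.69% (exact 95% binomial interval 1.65% to 4.12%, counting error only) and 5.52% (4.51% to 6.67%) and one of Cd163 in 4.03% (2.73% to 5.70%) and 5.74% (4.71% to 6.91%).

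Taken as cells with a UMI of either receptor, 41 of 745 and 175 of 1812 C1q-high cells were positive on chow (5.50% and 9.66%), and 7 of 399 and 4 of 557 on HFD (1.75% and 0.718%). Both receptors were found in the same cell in 9 and 29 cells on chow and in 2 and 1 on HFD. In the chow mice these positive cells carried Pf4 at 7886 and 5818 CPM against 1961 and 1788 CPM in the other C1q-high cells, Mrc1 at 792 and 805 against 259 and 322 CPM, and Retnla at 1411 and 1114 against 39.2 and 120 CPM. Their Fcrls stood at 551 and 663 against 335 and 339 CPM on chow, but in HFD replicate 1 at 66.8 against 71.0 CPM and in HFD replicate 3 at 108 against 44.4 CPM. The 7 positive cells of HFD replicate 1 held Pf4 at 9882 CPM and the 4 of HFD replicate 3 at 2797 CPM, against 465 and 307 CPM in the remaining cells. The median depth of these cells, 1744 and 1755 UMIs, was under that of the other C1q-high cells of these mice (3844 and 4331 UMIs).

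Dab2, the clathrin adaptor (chromosome 15, 6299788 to 6440712), was at 474 and 586 CPM in C1q-high cells on chow and at 173 and 101 CPM on HFD, a difference of -2.10 on the log2 scale (standard error 0.24). The groups lay apart, and a UMI was found in 67.3% and 73.7% of the cells against 34.8% and 26.4%. Fcrls (chromosome 3, 87250758 to 87263738) was at 347 and 368 CPM against 71.0 and 44.7 CPM, the lowest log2 difference of the fitted members at -2.78 (standard error 0.22). It was found in 48.2% and 50.7% of C1q-high cells on chow and in 12.5% and 7.54% on HFD.

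Of the secreted factors, Pf4 (chromosome 5, 90772435 to 90773383) was found in 84.8% and 87.3% of C1q-high cells on chow and in 40.9% and 28.6% on HFD. Its level was 2296 and 2159 CPM against 550 and 317 CPM, a difference of -2.50 on the log2 scale (standard error 0.24). Pf4 is also a platelet gene, and its neighbour on the same strand, Ppbp (platelet basic protein), ends 2371 bases before it. Of 8 platelet markers 2 (Ppbp and Gng11) had a row, at a summed 27.2 and 18.2 CPM in C1q-high cells of the chow mice, against 1.82 and 4.47 CPM in the HFD mice. Their level was thus lower on HFD as well, and their part in the difference of Pf4 was not tested.

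Retnla (chromosome 16, 48842551 to 48844461) overlapped between the diets. It was at 117 and 211.5 CPM in C1q-high cells on chow and at 179.5 and 32.1 CPM on HFD (difference -0.81 on the log2 scale, standard error 0.59). A few cells held most of its UMIs. In HFD replicate 1 a single cell carried 201 of 296 UMIs. In HFD replicate 3 one cell carried 62 of 79 UMIs, whereas in chow replicates 9 and 11 the cell with most UMIs held 23.1% and 18.2% of them. Without the top cell of each mouse Retnla was at 89.7 and 173 CPM on chow and at 57.6 and 6.90 CPM on HFD, which did not overlap. Counted by cells, Retnla was found in 5.64% and 12.1% of C1q-high cells on chow and in 9.52% and 1.80% on HFD, which overlapped. The difference was -2.52 without HFD replicate 1 and 0.01 without HFD replicate 3, so that it rests on which HFD mouse is kept.

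The stretches upstream of the start sites are shown for Mrc1, Pf4 and Dab2, which did not overlap between the diets in C1q-high cells, and for Retnla, which overlapped between the diets. They are RefSeq promoters of GRCm38.p6 on the plus strand, 5′ to 3′. Each stops at the start of the GENCODE gene model, so that 22 bases of Mrc1, 58 of Retnla and 1 of Dab2 before the RefSeq start are not shown. Capitals mark the letters GAGGAA (here on the minus strand, read as TTCCTC, the core bound by PU.1, a factor of myeloid cells), TTGCNNAA (C/EBP), the STAT6 motif (TTC and GAA with 4 bases between) and TGCTGA (a short site of MAF factors). TATAAA was searched as well, and each was searched on both strands. In Retnla the STAT6 and C/EBP letters lie 1 base apart.
Mrc1, chr2:14229164-14229391: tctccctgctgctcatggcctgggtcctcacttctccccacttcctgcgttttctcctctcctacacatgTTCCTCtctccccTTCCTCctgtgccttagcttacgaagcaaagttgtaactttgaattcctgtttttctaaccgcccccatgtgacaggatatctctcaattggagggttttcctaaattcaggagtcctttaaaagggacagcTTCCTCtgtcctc
Pf4, chr5:90772185-90772434: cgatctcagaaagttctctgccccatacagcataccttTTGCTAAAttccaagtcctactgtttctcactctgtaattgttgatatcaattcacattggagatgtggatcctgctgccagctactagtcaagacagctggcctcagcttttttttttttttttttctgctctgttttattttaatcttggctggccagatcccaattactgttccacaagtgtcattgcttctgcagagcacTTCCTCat
Dab2, start site 1, chr15:6299539-6299787: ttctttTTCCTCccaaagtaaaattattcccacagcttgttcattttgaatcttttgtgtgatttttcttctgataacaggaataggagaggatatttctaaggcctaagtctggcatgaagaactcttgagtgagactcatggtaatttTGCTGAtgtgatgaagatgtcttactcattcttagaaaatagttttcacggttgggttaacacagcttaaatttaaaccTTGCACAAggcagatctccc
Retnla, chr16:48842359-48842550: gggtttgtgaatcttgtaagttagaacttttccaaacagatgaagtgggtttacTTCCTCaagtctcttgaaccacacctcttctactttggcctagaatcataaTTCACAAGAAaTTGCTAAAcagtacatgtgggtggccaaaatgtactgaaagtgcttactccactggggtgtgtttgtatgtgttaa
GAGGAA was present in all 4 stretches, in Mrc1 at 180, 167 and 35 bases before the RefSeq start, in Dab2 at 244, in Retnla at 196 and in Pf4 at 8. Over the RefSeq promoters of this length, 32851 in number, 23.25% held it. TTGCNNAA, in 9.56% of promoters, was found in Pf4 (212 bases before the start), Dab2 (21) and Retnla (134). The STAT6 motif, in 5.85%, was found in Retnla (145), and TGCTGA, in 16.08%, in Dab2 (100). These places in Dab2 are those of start site 1. Start site 2 of Dab2, not shown, held GAGGAA (249 bases before it) and none of the other letters. Which start site these cells use was not tested. The 250 bases of Cd163 held none of these letters, 36 bases of Fcrls were left before its gene model, and Lyve1 is named only. A match is a string of letters and no measured binding.

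Across stages, Mrc1, Dab2, Pf4, Fcrls and Lyve1 were highest in C1q-high cells on both diets and lay apart from the next stage. Cd163 did so on chow alone, since on HFD its C1q-high cells (8.49 and 0.812 CPM) overlapped with the stages below. Retnla did so on HFD alone, where 1 cell held 62 of its 79 UMIs in C1q-high cells of HFD replicate 3. Without that cell they were at 6.90 CPM, below the Ly6c2-positive MHC II-low cells of HFD replicate 1 (18.0 CPM), so that the stages overlapped. On chow, where Ly6c2-positive MHC II-high cells were left out of the order (4 cells in chow replicate 9), the order for Mrc1, Dab2, Pf4 and Fcrls was C1q-high, Ly6c2-negative C1q-low and Ly6c2-positive MHC II-low cells, and no neighbours in that order overlapped. Ly6c2-negative C1q-low cells of the chow mice held Mrc1 at 114 and 131 CPM, Dab2 at 249 and 236 CPM, Pf4 at 629 and 382 CPM and Fcrls at 43.7 and 50.3 CPM. On HFD C1q-high cells again stood above each other stage for these 4 genes. Below them, Ly6c2-negative C1q-low cells (Mrc1 5.51 and 11.8 CPM, Dab2 77.2 and 43.1 CPM, Pf4 25.7 and 19.6 CPM, Fcrls 0 and 1.31 CPM) overlapped with Ly6c2-positive MHC II-high cells for each of the 4 genes. Lyve1 had 0 UMIs in the Ly6c2-negative C1q-low cells of both chow mice, which allows up to 13.1 and 15.1 CPM. C1q-high cells held 98.9% of its UMIs on chow, where they held 88.1% and 93.4% of the UMIs of all genes. Cd163 had 1 UMI in Ly6c2-negative C1q-low cells on chow. For Retnla these cells were at 21.8 and 694 CPM on chow, and 1 cell of chow replicate 11 held 113 of its 138 UMIs there.

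RNA set free from broken cells can add UMIs to every droplet, so the level of each gene was set against that of C1qa, both as a percentage of the level in C1q-high cells of the same mouse. Ly6c2-positive MHC II-low cells held the monocyte list at 14510 and 18580 CPM on chow and at 26670 and 25180 CPM on HFD. On chow the plasma cell markers Igha and Jchain (2 of 4 with a row) exceeded it, at 40590 and 71360 CPM, against 9151 and 7443 CPM on HFD. In these cells C1qa reached 7.45% of its C1q-high level in chow replicate 11, and Pf4 (6.90%), Mrc1 (5.65%), Dab2 (6.35%) and Fcrls (8.99%) lay close to it. In the other mice C1qa was at 1.63% to 2.56% and these genes at 0% to 7.07%, from at most 19 UMIs of a gene per mouse. Dab2 (6.52% to 7.07%, on 6 to 12 UMIs) and Pf4 (3.12% to 3.75%, on 9 to 19 UMIs) stood above the percentage of C1qa in each of these 3 mice. The C1q limit of the gate caps C1qa in these cells but not the members, so that this comparison cannot part free RNA from expression. With 0 to 36 UMIs of these genes per mouse, neither expression nor its absence is read from the levels. In the same cells Pf4 was at 86.1 and 149 CPM on chow and at 18.0 and 9.89 CPM on HFD, and C1qa at 153 and 559 against 95.9 and 137 CPM. Pf4 was the 1 member that entered the fit there and was called lower (-3.20 on the log2 scale, standard error 0.44), with 0.243% of 4534 genes called lower and 0.573% higher. The part of the plasma cell markers in this difference was not tested.

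In Ly6c2-negative C1q-low cells on chow Mrc1 reached 39.3% and 35.7% of its C1q-high level, Dab2 52.5% and 40.3%, Pf4 27.4% and 17.7% and Fcrls 12.6% and 13.7%, while C1qa, which the gate itself limits, was at 5.83% and 7.91%. On HFD Dab2 was at 44.7% and 42.7%, Mrc1 at 4.81% and 16.7% (3 and 9 UMIs), Pf4 at 4.68% and 6.19% and Fcrls at 0% and 2.93%, with C1qa at 5.98% and 4.93%. By cells, a UMI of Dab2 was found in 12.9% and 8.96% of them on HFD, against 2.25% and 2.00% of Ly6c2-positive MHC II-low cells, with median depths of 2396 and 2373 against 3985 and 2939.5 UMIs. For Mrc1 the same shares were 1.75% and 2.51% against 1.498% and 1.33%, which lie close together. Pf4 on chow was found in 33.7% and 31.9% of Ly6c2-negative C1q-low cells against 22.7% and 31.4% of the Ly6c2-positive MHC II-low cells, and after thinning to 1500 UMIs in 30.4% and 17.0% against 11.5% and 15.9%, so that chow replicate 11 did not part them by share. All 3 members that entered the fit in Ly6c2-negative C1q-low cells were called lower on HFD (Dab2 -2.12, Mrc1 -3.78 and Pf4 -4.57 on the log2 scale, standard errors 0.31, 0.47 and 0.31), where 1.49% of 4235 genes were called lower and 1.46% higher, and the test was part of the contrast that chose them. These sums rest on 89 and 91 cells on chow. Igha and Jchain summed to 13710 and 2901 CPM in them on chow and to 134 and 94.1 CPM on HFD. The dendritic cell list (6 of 6 genes with a row) was at 109 and 121 CPM in them on chow and at 513 and 225 CPM on HFD. The part of either in the members' difference was not tested. Without 1 of the mice Dab2 ran from -2.58 to -1.71, Mrc1 from -4.43 to -3.43 and Pf4 from -4.88 to -4.18. With the C1q limit at 0.25% Dab2 was no longer called and Mrc1 did not enter the fit.

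The level of each member over all cells of an HFD mouse was computed from the chow level of each stage and the UMI shares of the stages in that mouse. For Mrc1 this expected level was 177.5 and 185 CPM, against 319 CPM on chow and a measured 55.2 and 35.6 CPM in HFD replicates 1 and 3. The expected level of Mrc1 was thus 1.80 and 1.72 times below that on chow, and the measured level was 3.22 and 5.20 times below the expected one. The stages are gated on C1q, which itself was lower on HFD within C1q-high cells. For Dab2 the expected over the measured level was 3.12 and 4.94, for Pf4 4.32 and 7.32, for Fcrls 5.62 and 9.02 and for Retnla 1.51 and 8.52. It was higher in HFD replicate 3 than in HFD replicate 1 for these 5 genes and for Cd163 (2.27 and 11.5, on 17 and 5 UMIs), and lower for Lyve1 (10.0 and 5.30, on 7 and 20 UMIs). For Retnla the factor depended on the C1q limit. It was 1.14 and 6.70 at 0.25% and 2.66 and 13.9 at 1%, where the expected level (228.5 and 209.9 CPM) was above that on chow (179 CPM). These are ratios of 2 levels for 1 mouse each and have no error beyond the difference between both HFD mice. For Ly6c2-positive MHC II-high cells the chow level came from only 4 and 29 cells. That stage held 15.1% and 25.9% of the UMIs of HFD replicates 1 and 3. For Retnla the chow level of Ly6c2-negative C1q-low cells rested largely on 1 cell of chow replicate 11, with 113 of its 138 UMIs there.

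**Figure D2:**
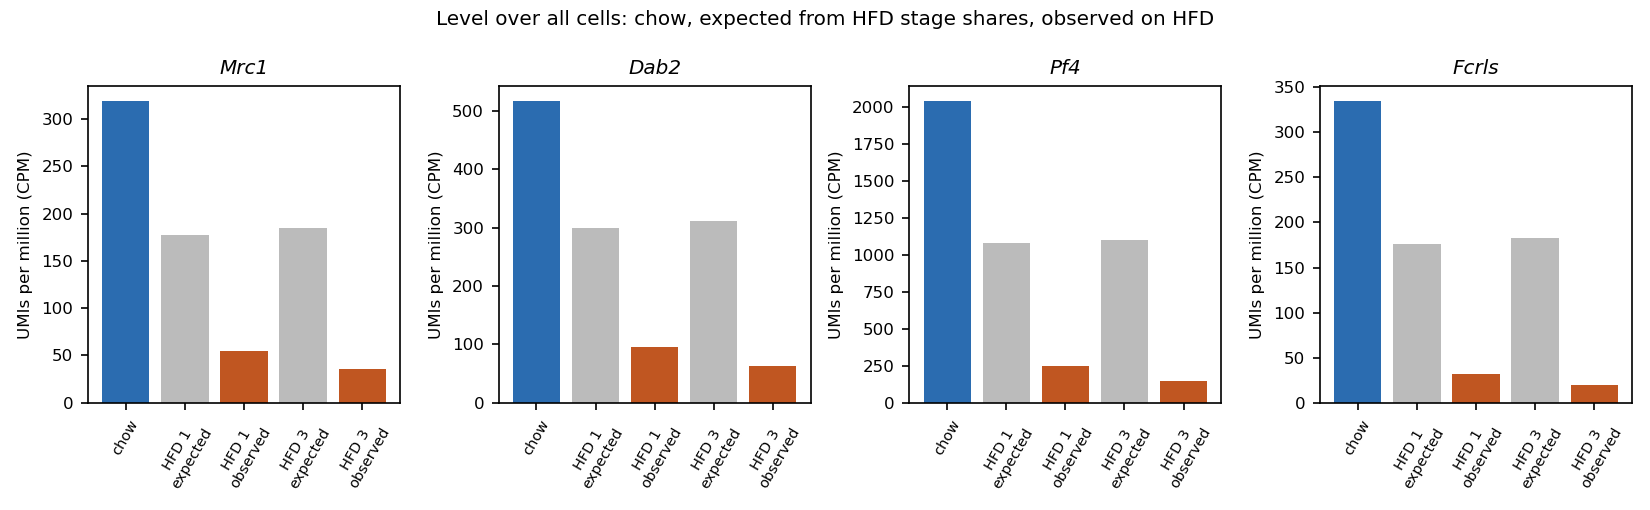
Level over all cells in CPM (linear axis from 0) on chow (blue, both mice pooled), expected from the chow level of each stage and the stage shares of each HFD mouse (grey), and measured in that HFD mouse (orange). For Pf4 the bars are 2043, 1079 and 250 CPM for HFD replicate 1 and 1102 and 151 CPM for HFD replicate 3.

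The C1q-high cells of both diets were not alike in C1q itself. Their median C1q share was 1.91% and 2.00% of UMIs on chow and 1.60% and 1.34% on HFD, and monocyte markers summed to 321 and 439 CPM on chow and to 2344 and 2869 CPM on HFD. Ccr2 led the list on chow (223 and 278 CPM) and Plac8 on HFD (1464 and 1743 CPM). The members were therefore followed within bands of C1q, a comparison added after the data were seen. On chow Dab2 was at 734 and 494 CPM in the band of 0.5% to 1%, at 458 and 584 CPM in that of 2% to 2.5% and at 494 and 675 CPM above 2.5%. Mrc1 was at 290.3 and 323 CPM in the first and at 358 and 473 CPM in the last. On HFD Mrc1 was at 59.3 and 46.0 CPM in the first and at 129 and 174.5 CPM in the last. Dab2 on HFD was at 86.8 and 64.7 CPM in the first and at 266 and 159 CPM in the last. Pf4 was at 2231 and 1896 CPM between 0.5% and 1%, at 2243 and 2136 CPM between 2% and 2.5% and at 3225 and 3029 CPM above that. On HFD it was at 146 and 131 CPM, 636 and 694 CPM and 1327 and 838 CPM in the same bands. Fcrls was graded on both diets. From the band of 0.5% to 1% to that above 2.5% it went from 96.8 to 613 and from 174 to 553 CPM on chow, and from 6.35 to 180 and from 4.31 to 175 CPM on HFD. These bands share libraries and C1q genes with the gate, and the order is a description.

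**Figure D3:**
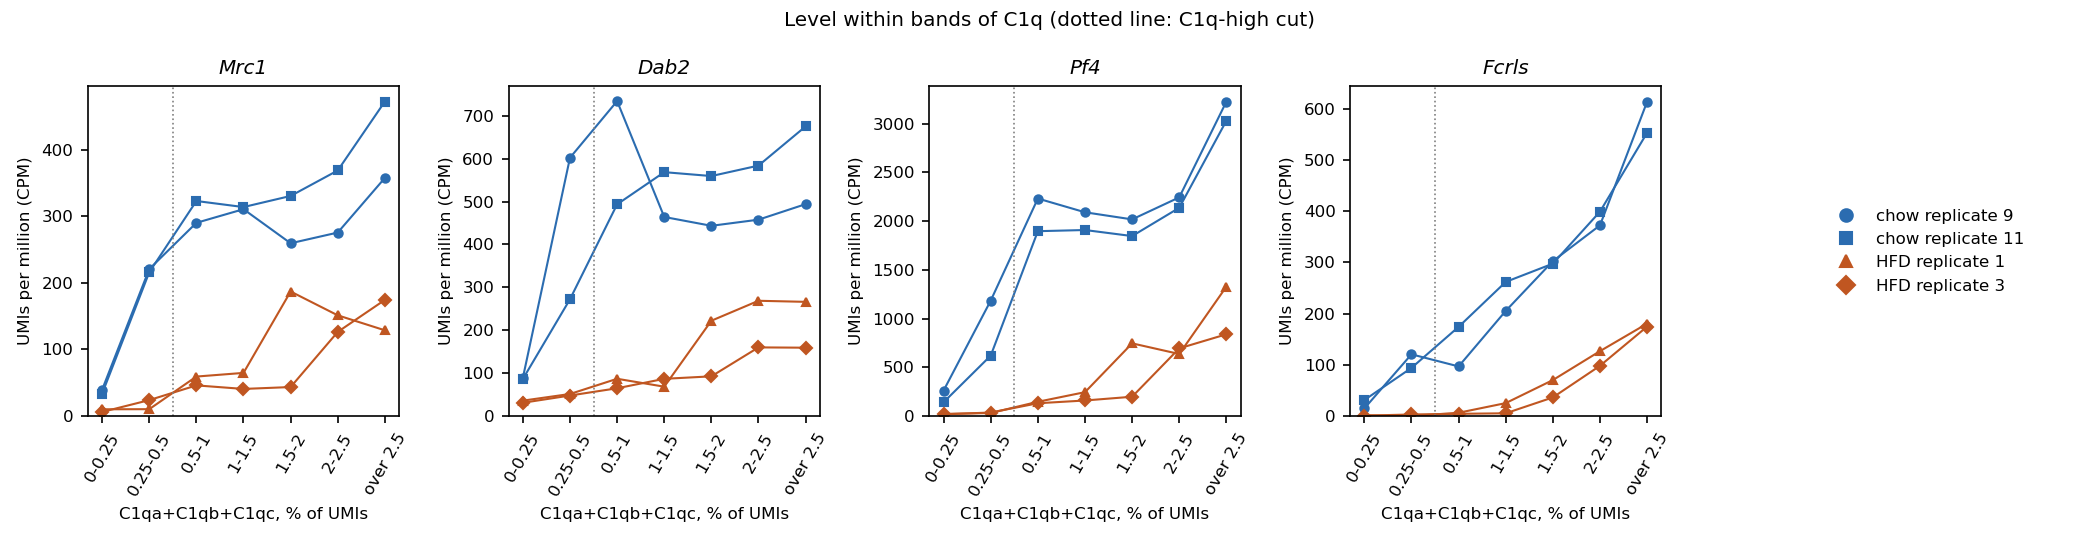
Level of 4 members in CPM (linear axis) within bands of the C1q share of UMIs (horizontal axis, percent), 1 line per mouse; the dotted line is the C1q-high limit. Fcrls climbs on both diets, to 613 and 553 CPM in the chow mice and to 180 and 175 CPM in the HFD mice.

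In the cells with C1q at or above 2% of UMIs (325 and 896 on chow, 131 and 136 on HFD) the members were compared again. Mrc1 was at 304 and 402 CPM against 142 and 146 CPM (-1.35 on the log2 scale, standard error 0.20), Dab2 at 470 and 613 against 268 and 160 CPM (-1.40, standard error 0.23), Pf4 at 2579 and 2419 against 925 and 752.5 CPM (-1.63, standard error 0.15) and Fcrls at 455 and 448 against 149 and 129 CPM (-1.76, standard error 0.19). In this band Lyve1 (-2.53, standard error 0.46), Cd163 (-4.03, standard error 0.87, with 0 CPM in HFD replicate 3) and Retnla (-1.05, standard error 0.58) entered the fit as well. Between 0.5% and 1% the values were -2.69 for Mrc1, -3.15 for Dab2, -4.03 for Pf4 and -4.80 for Fcrls. The difference between diets was thus smaller for these 4 genes where C1q was high, a change that was not tested. Plac8 was at 38.2 and 61.0 CPM on chow and at 555 and 559 CPM on HFD in the cells at or above 2%, and at 114 and 373 against 2850 and 3562 CPM between 0.5% and 1%, and its part in the members' difference was not tested. On chow Retnla was at 803 and 1349 CPM between 0.5% and 1%, where 11.3% and 11.2% of 53 and 98 cells held a UMI of it, against 44.0 and 165 CPM at or above 2%. The share did not fall in chow replicate 11, where 14.1% of cells between 2% and 2.5% and 11.9% above 2.5% held a UMI of it, against 6.70% and 3.45% in chow replicate 9.

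Members were found together in the same C1q-high cells. With each cell at 1500 UMIs, a C1q-high cell held a UMI of 1.78 and 2.05 of the 7 members on average on chow and of 0.770 and 0.472 on HFD. No member was found in 14.2% and 10.3% of the cells on chow and in 56.0% and 67.5% on HFD, while 4 members were found in 5.78% and 10.3% against 1.68% and 0.587%.

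**Figure D4:**
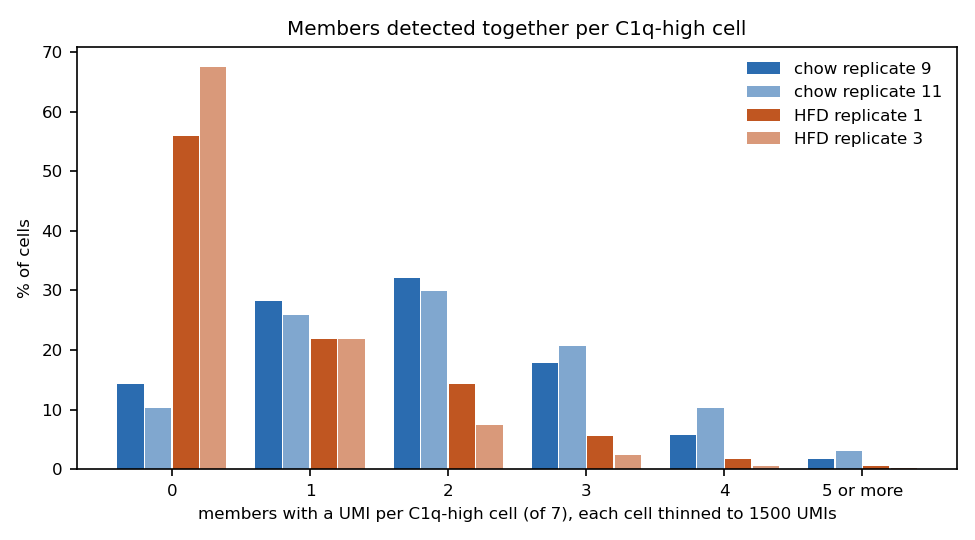
Share of C1q-high cells (percent, axis from 0) with a UMI of 0 to 4 and of 5 or more of the 7 members, each cell thinned to 1500 UMIs, 1 bar per mouse (blue, chow; orange, HFD). Cells with 0 members make up 14.2% and 10.3% on chow and 56.0% and 67.5% on HFD.

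In 19 of the 21 pairs of members, cells with the one gene held the other more often than cells without it in both chow mice, and in 16 of 21 in both HFD mice, where Cd163 was found in 3 and 1 cells after thinning. The counts moved with the settings, from 18 to 21 pairs on chow and from 11 to 18 on HFD, with the 11 found once cells holding another cell type's marker were left out. Pf4 was found in 82.5% and 82.1% of Mrc1-positive cells against 65.4% and 67.3% of Mrc1-negative cells on chow. On HFD the same shares were 55.8% and 46.8% against 24.3% and 14.9%. Fcrls went with Pf4 in the same way, since on HFD 74.2% and 60.9% of Fcrls-positive cells had Pf4 against 24.5% and 15.8% of Fcrls-negative cells. Of the cells on chow with Lyve1, 75.0% and 74.1% held Mrc1 (12 and 58 cells) and 41.7% and 24.1% held Retnla, against 1.86% and 4.57% of the Lyve1-negative cells for Retnla. The pairs that did not lie above in both chow mice were Retnla with Dab2 and Retnla with Fcrls. In chow replicate 9, 27.8% of Retnla-positive and 32.5% of Retnla-negative cells held Fcrls. The members share each cell's library, and cells of 1 mouse are no replicates.

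**Figure D5:**
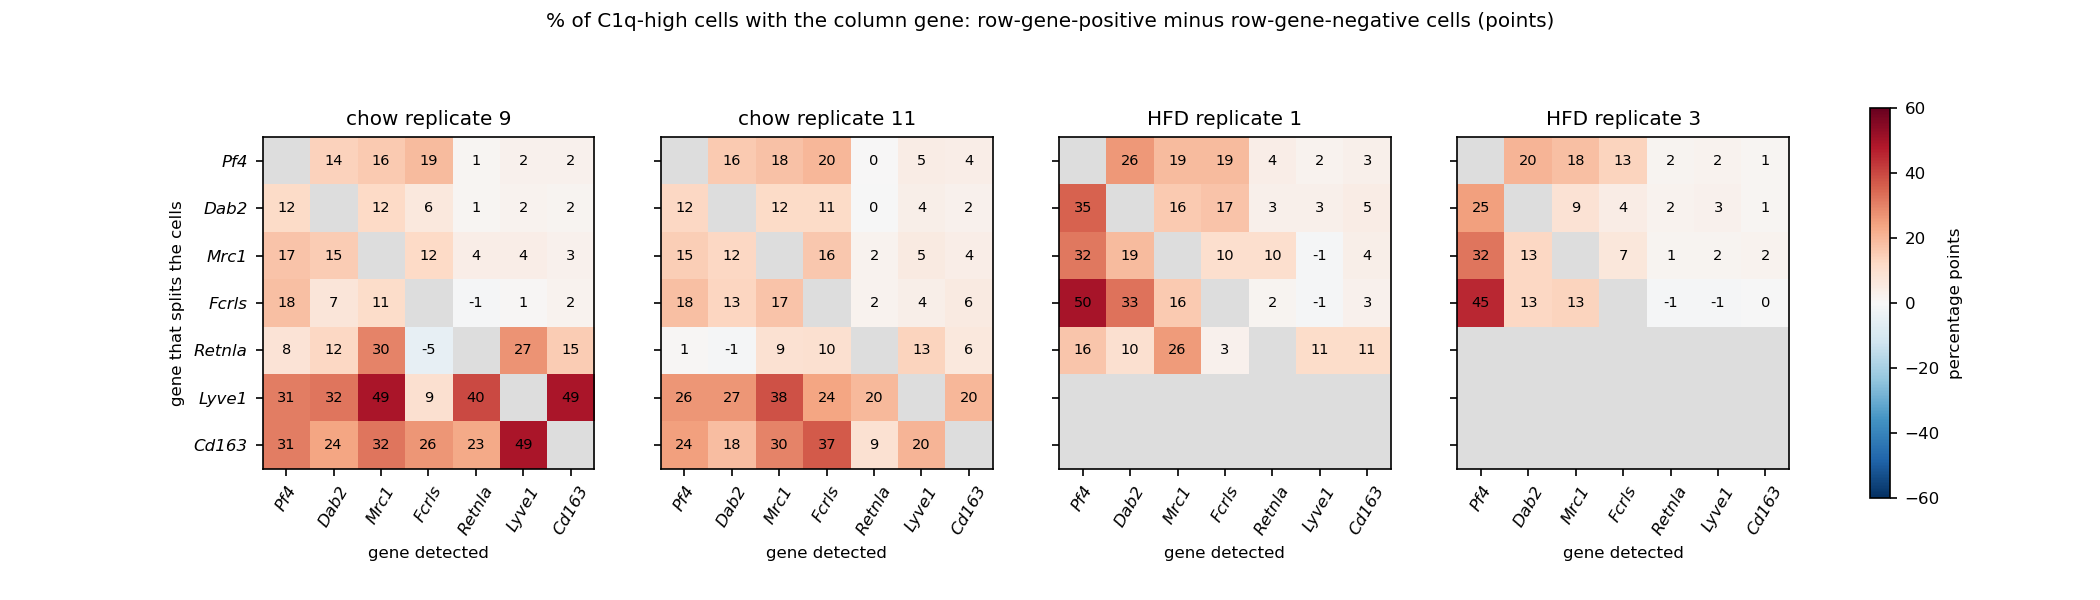
Difference, in percentage points, between the share of C1q-high cells with the column gene among cells positive and among cells negative for the row gene, each cell thinned to 1500 UMIs, 1 panel per mouse; grey fields are the diagonal and rows with fewer than 10 positive cells. Lyve1 and Cd163 show the highest values on chow, and Retnla with Fcrls is below 0 in chow replicate 9.

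The genes most like the members among the 5095 genes compared were Ccl7, Ccl8, Apoe, Ccl12 and C1qa. Likeness was the mean over the 4 mice of the correlation, across thinned C1q-high cells, between the UMIs of a gene on the log2(1 + UMI) scale and the number of members in the cell, with positive values in each mouse required. It was 0.308 for Ccl7 (0.233 to 0.436 over the mice), 0.255 for Ccl8 (0.193 to 0.373) and 0.237 for Apoe (0.0418 to 0.4225). For Ccl12 it was 0.226 (0.102 to 0.345) and for C1qa 0.220 (0.126 to 0.2915). Ccl7, Ccl8 and Ccl12 are chemokines that attract monocytes and Apoe is the lipid carrier apolipoprotein E. The most opposed gene was H2-Ab1, an MHC class II gene, at -0.260 (-0.469 to -0.0272 over the mice). All points share each cell's depth of 1500 UMIs, and these weak values are a description.

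Other genes of uptake were examined as lists. Of 42 endocytic receptors 21 were tested in C1q-high cells, and 2 fell and 1 rose on HFD, near the 4.67% lower and 4.99% higher of all genes tested there. Their median log2 difference was -0.07, against -0.03 for all genes. Cd36, a scavenger receptor for lipids, fell from 119 and 88.9 CPM to 43.1 and 47.1 CPM (-1.33 on the log2 scale, standard error 0.20, edgeR adjusted p = 0.00207, quasi-likelihood test with the Benjamini-Hochberg method). Stab1, a scavenger receptor of tissue macrophages, fell from 103 and 118 CPM to 62.5 and 40.6 CPM (-1.26, edgeR adjusted p = 0.00408). Clec7a, the beta-glucan receptor Dectin-1, rose from 624 and 497 CPM to 1379 and 1522 CPM (1.24, edgeR adjusted p = 0.000759). Both falls were no longer called without HFD replicate 3 (edgeR adjusted p of 0.0197 for Cd36 and 0.0368 for Stab1), and that of Cd36 also without HFD replicate 1 (0.0124). In the cells with C1q at or above 2% neither was called (edgeR adjusted p of 0.167 and 0.102). Over all cells, where the shares of the stages enter, 8 of 21 fell and 2 rose (8.58% and 7.67% of all genes), among them Cd36 (-2.24), Stab1 (-2.03) and Mertk, a receptor for apoptotic cells (-1.82 on the log2 scale, edgeR adjusted p = 0.00186). Mertk was not called without either HFD mouse (edgeR adjusted p of 0.0173 without HFD replicate 1 and 0.0233 without HFD replicate 3), nor Stab1 without HFD replicate 3 (0.01).

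Of 44 genes of the clathrin machinery, with which the adaptor Dab2 works, 32 were tested in C1q-high cells and 1 fell (4.67% of all genes). This was Eps15, an adaptor of clathrin-coated pits, from 58.9 and 65.1 CPM to 31.5 and 30.9 CPM (-1.13 on the log2 scale, edgeR adjusted p = 0.00289, and 0.0126 and 0.0323 without HFD replicates 1 and 3). The median of the 32 genes was -0.18 on the log2 scale. Over all cells Eps15 (-0.9987) and Arrb2, the arrestin of receptor internalisation (-0.83), fell, 2 of 32 against 8.58% of all genes. Their calls were lost when chow replicate 11 was left out (edgeR adjusted p of 0.0102 and 0.0105) and when either HFD mouse was (0.0203 to 0.0488).

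Of 36 further genes known from resident tissue macrophages, some of which such as Stab1 are also on the receptor list, 25 were tested in C1q-high cells, where 15 fell and 1 rose (4.67% and 4.99% of all genes), with a median of -1.19 on the log2 scale. Igf1, a growth factor, fell from 77.9 and 71.7 CPM to 10.9 and 4.87 CPM (-3.46, edgeR adjusted p = 0.0001425), and Cd4 fell from 105 and 92.3 CPM to 21.8 and 16.2 CPM (-2.53, edgeR adjusted p = 0.00011). Ccl24, an eotaxin, rose from 23.7 and 25.6 CPM to 74.6 and 454 CPM (3.29, edgeR adjusted p = 0.00689), a call lost with DESeq2 (adjusted p = 0.025) and with the C1q limit at 1% (edgeR adjusted p = 0.0159). Over all cells 17 of 25 fell (8.58% of all genes), with Igf1 at -4.37, Cd4 at -3.60 and the myelin protein gene Pmp22 at -3.31 on the log2 scale. In Ly6c2-negative C1q-low cells 7 of 19 fell and 1 rose (1.49% and 1.46% of all genes), and in Ly6c2-positive MHC II-low cells 2 of 18 fell (0.243% of all genes). Like the members, this list was written with earlier results of these cells known and is no independent evidence of its direction.

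Genes of other cell types moved with diet in the C1q-high cells as well. Plasma cell markers (Igha and Jchain) were at 1760 and 1192 CPM on chow and at 141 and 102 CPM on HFD. The dendritic cell list (6 of 6 with a row) was at 32.3 and 32.9 CPM on chow and at 144 and 147 CPM on HFD. Of 6 lymphatic endothelial markers 1 (Pdpn) had a row, at 13.6 and 13.7 CPM against 4.25 and 5.28 CPM, and was examined because Lyve1 also marks that endothelium. With cells that held a UMI of a platelet, endothelial, epithelial, plasma, T, B or fibroblast marker left out, 206 of 710 and 334 of 1654 thinned C1q-high cells remained on chow and 159 of 357 and 235 of 511 on HFD, so that a larger share was removed on chow. Mrc1 was then found in 29.8% ± 3.64 (SD, n = 2) of the C1q-high cells on chow and in 10.5% ± 4.67 (SD, n = 2) on HFD, against 32.0% ± 7.68 and 11.9% ± 3.796 with them. For Pf4 the shares were 72.4% ± 1.41 and 24.0% ± 8.71, against 71.4% ± 2.02 and 23.3% ± 7.81.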

How the data were processed

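RNA of single cells from 4 mice was read as UMI counts. The authors deposited raw counts per gene and cell, made per the labels with the 10x Genomics Single Cell 3' v2 kit and, by the submitters' processing notes, with kallisto 0.46.0 and bustools 0.39.2 on mm10. The paper reports removing cells that a reference-based annotation did not place among macrophages or monocytes. Doublets were not called here. Totals per library were 3824228 to 7947893 UMIs, which sets the precision of rare genes, and binomial intervals (exact, 95%) cover counting error only. UMIs were summed per mouse and stage, and genes that passed 1 CPM in 2 or more sums and were found in 5% of cells or more were tested with edgeR 4.0.16 (R 4.3.3, TMM, quasi-likelihood test, Benjamini-Hochberg adjustment, FDR 1%). Each mouse needed 20 cells, so Ly6c2-positive MHC II-high cells (4 in chow replicate 9) were not tested. Shares of cells with a UMI of a gene were taken without thinning, except where thinning is stated. Shares by number of members, for pairs of members and without other cell types' markers were taken after thinning to 1500 UMIs. With 2 mice per diet an exact permutation test, two-sided, cannot go below p = 0.33. The mice are separate animals.

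The members and lists were chosen with earlier results of these data known. Named besides the members were, per list, the 3 called genes with the largest log2 difference whose mice did not overlap between diets, in C1q-high and all cells, and the 5 genes most alike. Genes of the marker lists, the most opposed gene and further members of the tissue-resident list were named where they bear on a result. Alternatives were DESeq2 1.42.0, the likelihood-ratio test, no filter, other limits for C1q (0.25% and 1%), Ly6c2 (2 UMIs) and MHC II (2%), thinning to 1000 UMIs or none, and each mouse left out. Leaving out shared barcodes and the bands of C1q were chosen after seeing the data. The fits between diets were tried on simulated sums with the same size of change for each changed gene and the same dispersion for all genes. This did not imitate genes whose UMIs lie in few cells, such as Retnla and Cd163. Its outcome is not given here and is no support for the results.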

Additional observations from a re-analysis of the deposited data

How the results depend on the processing

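The diet difference was among the values that chose the members, so their calls under the alternatives are no support and are not given as such. For the number of genes called, over all cells it was 805, and 1307 with the likelihood-ratio test, 1218 with no filter and 155 to 920 with 1 mouse left out. In C1q-high cells it was 492, and 830 with the likelihood-ratio test, 256 and 79 in the bands of C1q at 0.5% to 1% and from 2%, and 136 to 721 with 1 mouse left out. In Ly6c2-negative C1q-low cells it was 125, and 288 with the C1q limit at 1%, 263 with the likelihood-ratio test, 288 with no filter and 91 to 167 with 1 mouse left out. In Ly6c2-positive MHC II-low cells it was 37, and 58 with MHC II at 2%, 100 with the likelihood-ratio test, 131 with no filter and 40 to 113 with 1 mouse left out. The cause was not tested.

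The median log2 difference is given over the members that entered the fit at the settings of the report. It was -2.98 over all cells (-3.65 to -2.67 with 1 mouse left out). In C1q-high cells it was -2.10, and -1.82 with C1q at 1%, -4.03 and -1.40 in the bands at 0.5% to 1% and from 2% (-1.63 over the 7 members fitted in the latter), and -2.55 to -1.73 with 1 mouse left out. In Ly6c2-negative C1q-low cells it was -3.78, and -2.68 with C1q at 0.25% and -3.17 with Ly6c2 at 2 UMIs (2 members each), -3.23 with C1q at 1% and -4.34 to -3.43 with 1 mouse left out. For these members the log2 difference turned sign for Retnla only, at 0.24 in the C1q band of 1% to 2% and 0.01 without HFD replicate 3, among 161 alternatives. Fits of 3 mice assume that the lone mouse varies like those of the other diet. No paired analysis was possible because the mice of both diets share no number in the labels. Few UMIs limit Cd163 and Lyve1, most of all on HFD.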
